A study of Mus musculus with 38 samples.

Results

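The type I interferon-stimulated genes described here are a set of 39 mouse genes chosen by symbol. Of the 39 genes, 37 were measured among the 19937 genes with a probe set of their own. Isg15 shares its probe set with another symbol, Ifi44 has no probe set in the annotation used here, and neither was analysed. The set holds regulators of the pathway (Irf7, Irf9, Stat2), the ISG15 system (Usp18, Herc6), nucleic acid sensors (Ifih1, Ddx58, Dhx58, Zbp1, Eif2ak2), the OAS family (Oas1a, Oas2, Oas3, Oasl1, Oasl2) and the IFIT family (Ifit1, Ifit2, Ifit3, Ifit3b). It also holds Parp9, Parp12, Parp14 and Dtx3l, the antiviral effectors Mx1, Mx2, Rsad2, Cmpk2 and Bst2, and 9 measured genes of other or less defined function (Samd9l, Xaf1, Ifi27l2a, Ifi35, Rtp4, Epsti1, Trim30a, Ifi206, Ifi213).

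Their levels were read on 38 Affymetrix gene arrays from 13 populations of sorted CD11b+ cells, all from female wild-type C57BL/6 mice aged 6 weeks. In untreated mice the populations were Ly6Chigh blood monocytes, dermal P1 (CD64low Ly6Chigh CCR2+ MHCII-), P2 (CD64+ Ly6Chigh CCR2+ MHCII+), P3 (CD64+ Ly6Clow CCR2+ MHCII+), P4 (Ly6C- CCR2- MHCII-), P5 (Ly6C- CCR2- MHCII+), dermal dendritic cells (DC, CD64- MHCII+), and migratory CD11b+ DC of the cutaneous lymph node. P1 to P3 are labelled as monocytes, and P4 and P5 as macrophages, which are CD64+. Inflammation was induced with 10 µl of 0.5% DNFB, a contact sensitizer. After 3 days P1, P2, dermal DC, node DC and CD64+ node cells were sorted. The titles call the CD64+ node cells migratory non-DC and another label calls them DC, so they are named here by their sort. The arrays of a population come from separate pools of animals, so the p-values here measure the spread between pools, and whether populations were sorted from the same pools is not stated. There are 3 arrays a population, but 2 for P1 after DNFB. Levels are log2 intensities, and differences between populations are log2 differences with their standard error after ±, so a difference of 1 is a factor of 2.

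Type I interferons (interferon alpha and beta) bind the receptor made of IFNAR1 and IFNAR2. The kinases JAK1 and TYK2 then phosphorylate STAT2, which joins IRF9 and binds the interferon-stimulated response element (ISRE) in promoters of interferon-stimulated genes. Their products detect viral nucleic acid, block translation, degrade RNA or trap virions, and USP18 is the chief feedback inhibitor at the receptor. Monocytes, macrophages and DC all carry the receptor, and many of these genes also respond to interferon gamma, which acts through the gamma-activated site (GAS).

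The promoters, from 250 bases before to 50 bases after the start in RefSeq (build GRCm38.p6), were in the table used here for 29 of the 39 genes, as 32 promoters. The core of the ISRE was searched on either strand as the half-site GAAA repeated after 2 bases of any kind. It was found in 16 of these 32 promoters (50%), and in 1131 of 32851 promoters of all genes (3.44%). The core of the GAS, TTC and GAA with 3 bases of any kind between them, was found in 5 of the 32 (15.6%) and in 8.3% of all promoters. Of 23 ISRE core matches in the set, 1 overlapped a GAS core match. The windows of 7 genes on which the results below turn are shown with the ISRE core in capitals. Windows with TTTC in capitals hold the core on the opposite strand.
Ifit1: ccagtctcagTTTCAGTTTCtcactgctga
Ifit3: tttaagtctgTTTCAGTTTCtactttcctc
Ifit3b: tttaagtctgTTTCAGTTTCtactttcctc
Ifi206: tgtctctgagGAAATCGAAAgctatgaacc
Ifi213: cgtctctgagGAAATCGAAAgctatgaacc
Oas1a: tcggGAAATGGAAACTGAAAatct
Rsad2: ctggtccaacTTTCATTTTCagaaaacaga
In this order the windows are at chr19:34640794-34640823 on the plus strand, chr19:34583397-34583426 on the plus strand, chr19:34607793-34607822 on the plus strand, chr1:173491339-173491368 on the minus strand, chr1:173599326-173599355 on the minus strand, chr5:120907526-120907549 on the minus strand and chr12:26456553-26456582 on the minus strand. Each lies before the start that its promoter entry uses. Those of Ifit1, Ifi206 and Rsad2 lie outside the RefSeq span of the gene, while those of Ifit3 and Ifit3b lie wholly inside it, with 23 bases of the Ifi213 window and 19 of the Oas1a window inside too, and whether these bases are exonic or intronic was not analysed here. The Ifit1, Ifit3, Ifit3b and Oas1a promoters each hold 2 matches, which in Oas1a overlap. The 30 bases of Ifit3 and Ifit3b are identical, and those of Ifi206 and Ifi213 differ at 1 of 30 bases. These are neighbouring copies of the same ancestral genes, and how far their probe sets read each other's RNA was not tested. The same holds for Oas1a and Trim30a, which have close relatives.

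Arrays of a population resembled each other, with correlations of 0.931 to 0.986 over all genes. The mean of 5 measured monocyte markers was 10.8 to 10.97 in blood, 4.96 to 6.15 in P4 and 4.18 to 4.43 in untreated node DC. Dermal sorts also held RNA of structural skin cells. The mean of 12 keratinocyte markers was 4.49 to 4.68 in blood, 7.06 to 8.09 in untreated P1 and 6.9 to 7.49 in untreated dermal DC, against 4.74 to 4.97 in untreated node DC. The mean of 12 fibroblast markers was 4.25 to 4.34 in blood and 6.58 to 10.27 in untreated P1. In such bulk samples, fewer cells of a type and less RNA per cell cannot be told apart.

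Across the 13 populations the interferon-stimulated genes were highest in blood monocytes and lowest in untreated dermal DC. The mean over the 37 genes was 8.67, 8.62 and 8.61 on the blood arrays, above every other array. Next came the CD64+ node cells after DNFB (7.94 ± 0.15, SD, n = 3), P1 after DNFB (7.66 ± 0.07, n = 2) and P2 after DNFB (7.63 ± 0.29, n = 3), the last 2 of which do not differ beyond their spread. Dermal DC after DNFB had 7.17 ± 0.23 and node DC after DNFB 6.77 ± 0.27 (n = 3 each). The untreated dermal and node populations lay between 6.72 ± 0.03 in P1 and 5.70 ± 0.06 in dermal DC, and neighbours among P5 (6.58 ± 0.18), P3 (6.37 ± 0.09), node DC (6.37 ± 0.05), P4 (6.34 ± 0.20) and P2 (6.23 ± 0.28) overlap in their spread. Gene by gene, 26 of the 37 had their highest mean in blood, 4 in the CD64+ node cells and 3 in P1 after DNFB. Untreated dermal DC had the lowest mean for 20 genes and untreated node DC for 9.

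**Figure D1:**
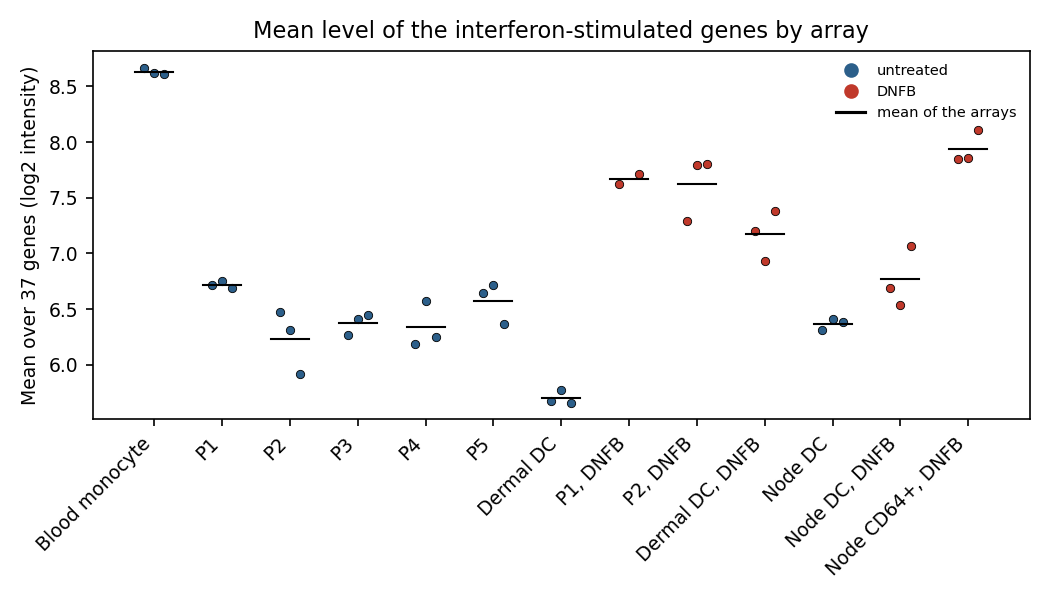
Mean over the 37 measured interferon-stimulated genes on each array (log2 intensity) by population, with points for arrays, blue for untreated and red for DNFB, and a line at the population mean. The blood arrays lie at 8.61 to 8.67, the untreated dermal DC have a mean of 5.70, and P1, P2 and dermal DC lie higher after DNFB than untreated.

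The genes were not equally alike. Over the 38 arrays, the level of Trim30a, an inhibitor of inflammatory signalling, followed the mean of the other members most closely (r = 0.95), and Dhx58, a RIG-I-like receptor, had r = 0.94. Oasl1, a 2'-5' oligoadenylate synthetase-like protein that represses IRF7 translation, had r = -0.02, Epsti1 0.32, Samd9l 0.40 and Usp18 0.46. These correlations describe arrays that share sorting, amplification and normalization, and no test was made of them. Oasl1 had its highest levels in P5 (8.59, 8.54 and 9.92) and P3 (8.04, 9.29 and 9.36). Its blood levels were 7.39, 7.71 and 7.38, below every P5 array. Among genes outside all lists, those whose 13 population means were most like the mean of the set were Slfn5 (r = 0.974), Trim30d (0.96), Sptlc2 (0.949), B430306N03Rik (0.947) and Abi3 (0.929). Of these, Slfn5, Sptlc2 and Abi3 also had their highest mean in blood monocytes and their lowest in untreated dermal DC.

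**Figure D2:**
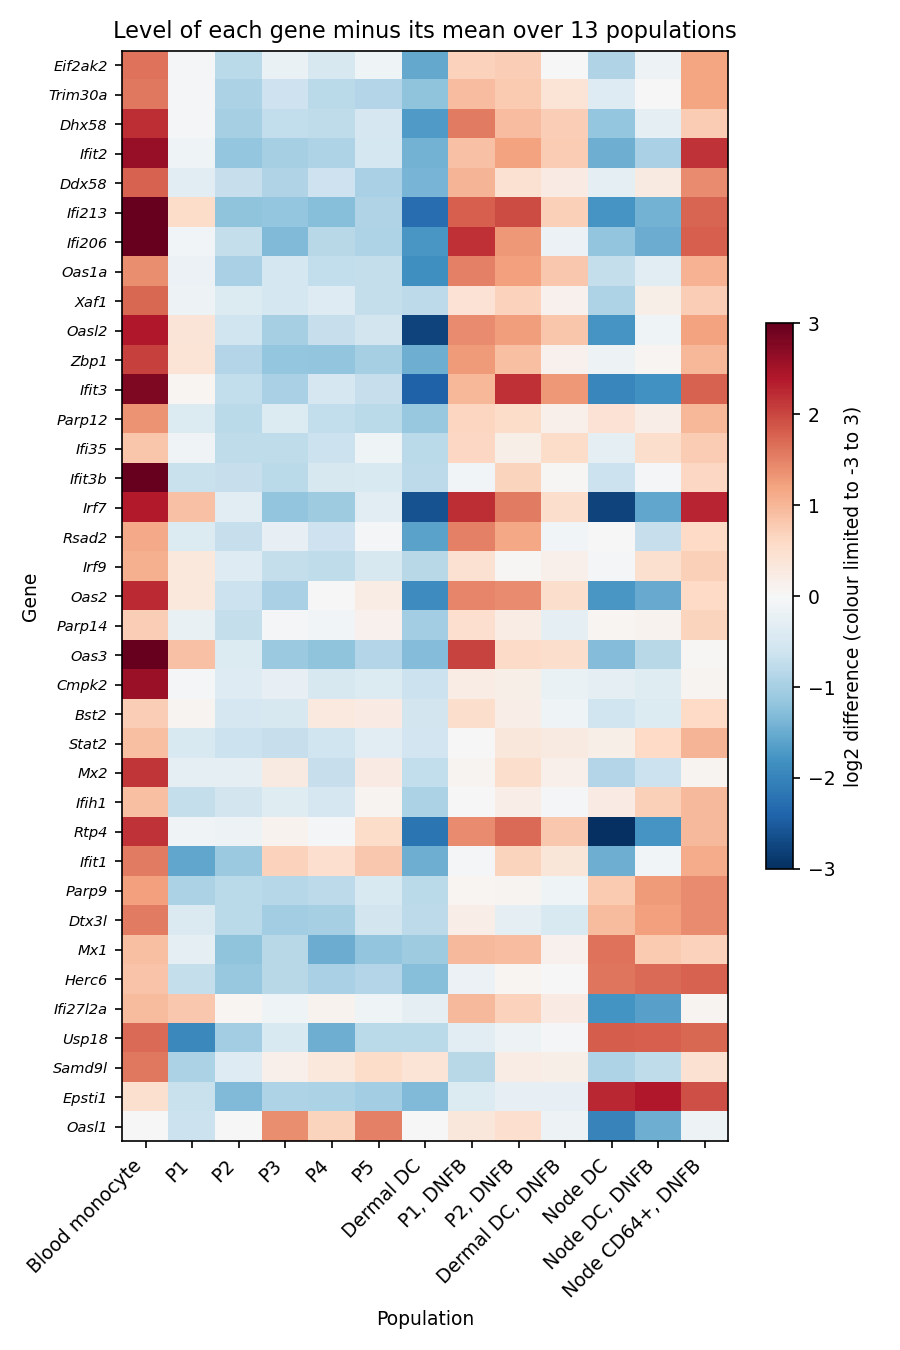
Level of each of the 37 genes (rows) in each of the 13 populations (columns), as the population mean minus the gene's mean over populations (log2, red higher, blue lower), with rows ordered from most to least like the mean of the other members. The blood column is red in all rows except that of Oasl1. Epsti1, Usp18 and Herc6 are red in the 3 node columns, and Ifi27l2a, Rtp4 and Irf7 are blue in both node DC columns.

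The first comparison sets P1 of untreated dermis against blood monocytes. These are separate sorts, and no cells were followed from blood into dermis. All 37 genes had a lower mean in P1 than in blood, and 34 fell by the test (limma, adjusted p under 0.05 over all genes), where 5.21% of all genes tested rose and 7.43% fell. The arrays did not overlap for 35 of the 37, against 14.3% of all genes lower without overlap, and the median difference was -1.87 against 0.01 for all genes. Every measured member of the IFIT family, the sensors, the ISG15 system and the PARP and DTX3L group fell. Irf9, Oasl1 and Ifi27l2a did not pass.

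Ifit3b, a copy of the RNA-binding protein IFIT3, was at 7.17, 6.38 and 7.20 in blood and 3.03, 2.95 and 2.71 in P1, a difference of -4.02 ± 0.28 (adjusted p = 2.9e-11). Its P1 levels lie under 4.02, the 40th percentile of all values on the arrays. Usp18, the protease that removes ISG15, was at 8.81, 8.36 and 8.48 in blood and 4.86, 5.12 and 4.79 in P1 (-3.63 ± 0.28, adjusted p = 2e-10). Both genes were high on all blood arrays and low on all P1 arrays, with no overlap.
Ifi206, a member of the AIM2-like interferon-inducible family, was at 8.96, 8.79 and 8.95 in blood and 5.85, 5.06 and 5.97 in P1 (-3.28 ± 0.49, adjusted p = 2.1e-05). Ifit1, which binds RNA with a foreign cap, was at 8.08, 7.62 and 7.41 and 4.84, 5.13 and 3.78 (-3.12 ± 0.56, adjusted p = 0.00023). Ifi213 was at 8.76, 8.80 and 8.65 and 6.44, 5.54 and 5.92 (-2.77 ± 0.46, adjusted p = 9.9e-05). In each of the 3 the blood arrays were close together and all above P1, which varied more.
Ifit3 was at 10.35, 10.15 and 10.35 in blood and 7.70, 7.89 and 7.04 in P1 (-2.74 ± 0.44, adjusted p = 6.6e-05). Irf7, the transcription factor that amplifies interferon production, was at 9.89, 9.74 and 9.85 and 8.92, 8.23 and 7.80 (-1.51 ± 0.43, adjusted p = 0.017), without overlap. Its call was lost on leaving out any of 3 arrays (blood 1, P1 2 or P1 3), with adjusted p from 0.052 to 0.1, and those of Bst2, Mx1 and Parp14 were each lost without at least 1 array.
Stat2, the partner of IRF9, was at 7.69, 8.11 and 7.70 in blood and 6.74, 5.95 and 6.75 in P1, a difference of -1.35 ± 0.28. Ifih1, which encodes MDA5, was at 8.78, 8.67 and 9.10 and 7.33, 7.36 and 7.03, a difference of -1.61 ± 0.34. Ddx58, which encodes RIG-I, was at 8.91, 8.84 and 8.98 and 6.53, 7.10 and 6.76, a difference of -2.12 ± 0.32. For Stat2, Ifih1 and Ddx58, all arrays in P1 were below all arrays in blood (adjusted p = 0.0014, 0.0014 and 2.1e-05 in turn).
Zbp1, a sensor of Z-form nucleic acid, was at 9.94, 9.87 and 9.82 in blood and 7.73, 8.82 and 8.14 in P1, a difference of -1.65 ± 0.27. Eif2ak2, which encodes the RNA-activated kinase PKR, was at 7.19, 8.17 and 7.32 and 5.74, 6.36 and 5.48, a difference of -1.70 ± 0.36. Oasl2, an OAS-like protein, was at 9.54, 9.64 and 9.64 and 7.19, 7.95 and 7.66, a difference of -2.00 ± 0.30. For Zbp1, Eif2ak2 and Oasl2, all arrays in P1 were below all arrays in blood (adjusted p = 6.5e-05, 0.0016 and 2e-05 in turn).
Ifit2, an RNA-binding IFIT protein, was at 7.77, 7.51 and 7.78 in blood and 4.34, 5.13 and 5.39 in P1, a difference of -2.73 ± 0.30. Rsad2, which encodes viperin, was at 8.20, 7.57 and 8.13 and 6.15, 6.26 and 6.88, a difference of -1.53 ± 0.29. Mx1, a GTPase of the myxovirus resistance family, was at 6.88, 7.54 and 6.83 and 6.07, 5.53 and 6.09, a difference of -1.19 ± 0.30. The arrays in P1 lay below those in blood in each of these (adjusted p = 1.3e-07, 0.00046 and 0.0086 in turn).
Bst2, which encodes tetherin, was at 10.13, 9.72 and 10.33 in blood and 9.36, 9.16 and 9.68 in P1, a difference of -0.66 ± 0.21. For Bst2, all arrays in P1 were below all arrays in blood (adjusted p = 0.036).

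Markers of skin cells moved with this comparison. Of 12 keratinocyte markers 10 rose in P1 and of 12 fibroblast markers 11 rose, and the arrays of the 2 populations do not overlap in the mean of either list. With the means of both lists added to the model, 6 of the 34 genes still fell (Ifit3b, Usp18, Ifit2, Cmpk2, Oas3 and Zbp1), and since blood and dermis differ in these markers throughout, marker level and population cannot be told apart here.

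Within untreated dermis fewer genes of the set passed. From P1 to P2, 5 of 37 genes fell and none rose (1.34% of all genes rose and 0.742% fell), namely Oas3 (-1.30 ± 0.29, adjusted p = 0.0098), Zbp1 (-1.29 ± 0.27, adjusted p = 0.0052), Ifi27l2a, Trim30a and Ifi213. Oas3, the synthetase that makes the activator of RNase L, was at 6.44, 6.93 and 6.47 in P1 and 5.05, 5.85 and 5.04 in P2. Zbp1, a sensor of Z-form nucleic acid, was at 7.73, 8.82 and 8.14 and 7.17, 7.08 and 6.56. The arrays of P1 lay above those of P2 for both. Leaving out P2 array 3 left 0 of these 5 calls and leaving out P2 array 2 left 3. In a limma fit to P1 and P2 alone 0 passed, while in the fit of all groups 18 genes of the set had an unadjusted p under 0.05. From P2 to P3 none of the 37 genes passed (0.176% of all genes rose and 0.196% fell), while 4 of them had an unadjusted p under 0.05.
Ifi213, an AIM2-like protein, was at 6.44, 5.54 and 5.92 in P1 and 4.56, 4.58 and 3.50 in P2, a difference of -1.75 ± 0.46. Trim30a, a ubiquitin ligase, was at 8.78, 8.43 and 8.19 and 7.94, 7.52 and 7.21, a difference of -0.91 ± 0.24. Ifi27l2a, of the ISG12 family, was at 12.17, 12.19 and 12.14 and 11.63, 11.55 and 11.12, a difference of -0.74 ± 0.17. For Ifi213, Trim30a and Ifi27l2a, all arrays in P2 were below all arrays in P1 (adjusted p = 0.039, 0.037 and 0.013 in turn).

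Between P3 and P5, of which P5 lacks CCR2, 1 gene passed (0.557% of all genes rose and 0.697% fell). Oas2 was at 5.03, 5.56 and 5.24 in P3 and 6.98, 5.59 and 6.85 in P5 (1.20 ± 0.31, adjusted p = 0.045), with P5 array 2 level with P3. This call was lost without any of 5 arrays (all 3 of P3, P5 array 1 and P5 array 3, adjusted p 0.065 to 0.24), while without P5 array 2 there were 2 calls. In a limma fit to P3 and P5 alone 0 passed (3 had an unadjusted p under 0.05 in the fit of all groups). The plasmacytoid DC list mean was 5.3 to 5.92 in P3 and 6.02 to 6.48 in P5, with 2 of 5 markers higher, and its part was not tested. Between P4 and P5, which differ in MHC class II, 0 of 37 genes passed (0.291% of all genes rose and 0.201% fell), and 2 had an unadjusted p under 0.05.

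Untreated dermal DC stood below the dermal monocytes and macrophages. Against P3, 6 genes fell (0.747% of all genes rose and 1.05% fell), and 32 of the 37 had a lower mean. In a limma fit to these 2 populations alone, 0 genes passed, while in the fit of all groups 16 had an unadjusted p under 0.05. Of 12 keratinocyte markers 1 also fell, and its part was not tested. Oasl2, an OAS-like protein with ubiquitin-like domains, was at 6.33, 6.21 and 6.11 in P3 and 4.81, 3.76 and 4.72 in dermal DC (-1.79 ± 0.30, adjusted p = 0.00054). Oas1a was at 6.80, 7.63 and 7.35 and 6.02, 6.47 and 5.35 (-1.32 ± 0.25, adjusted p = 0.0021). For both, all DC arrays were lower than all P3 arrays.
Rsad2, which encodes viperin, was at 6.04, 6.81 and 6.92 in P3 and 5.00, 5.38 and 5.32 in dermal DC (-1.36 ± 0.29, adjusted p = 0.0069). Rtp4, a chaperone of membrane receptors, was at 6.76, 8.02 and 8.85 and 5.52, 5.34 and 5.84 (-2.31 ± 0.48, adjusted p = 0.0062). Both were lower in all DC arrays, and both calls were lost without P3 array 3 (adjusted p = 0.056 for Rsad2 and 0.07 for Rtp4), which left 2 calls in all. The calls of Ifit1 and Parp14 were each lost without any of 5 arrays.
Ifit1, a sensor of foreign RNA caps, was at 6.60, 6.96 and 6.96 in P3 and 4.02, 5.87 and 4.17 in dermal DC, a difference of -2.15 ± 0.56. Parp14, a mono-ADP-ribosyltransferase, was at 7.14, 7.79 and 7.87 and 6.56, 6.79 and 6.51, a difference of -0.98 ± 0.26. The arrays in dermal DC lay below those in P3 in each of these (adjusted p = 0.038 and 0.044 in turn).

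P5 macrophages were higher than dermal DC in 14 of the 37 genes and lower in none, where 3.15% of all genes rose and 3.37% fell. Rtp4 was at 8.70, 8.83 and 7.43 in P5 (2.75 ± 0.48, adjusted p = 0.00028). Irf7 was at 6.67, 8.28 and 6.38 in P5 and 4.11, 5.28 and 5.14 in dermal DC (2.27 ± 0.43, adjusted p = 0.00063). Oasl2 was at 7.27, 6.88 and 5.85 in P5 (2.23 ± 0.30, adjusted p = 5e-06). All P5 arrays exceeded all DC arrays in these 3 genes.
Oas2, which with its relatives makes 2'-5' oligoadenylates, Ifit1 and Ifit3 were also higher. The other 8 called genes were Rsad2, Oasl1, Eif2ak2, Dhx58, Parp14, Oas1a, Bst2 and Ifi35, at 1.55 ± 0.29 down to 0.67 ± 0.21. Of the 14 calls, 8 were lost without at least 1 array, Ifit1 and Ifit3 among them (adjusted p 0.057 to 0.068 and 0.055 to 0.12). When the model was fitted to these 2 populations alone, 7 of the 14 calls remained. The mean of 5 plasmacytoid DC markers was 5.4 to 5.69 in dermal DC and 6.02 to 6.48 in P5, where 2 of the 5 were higher (Siglech 2.33 ± 0.47, adjusted p = 0.0013, and Cox6a2 1.16 ± 0.21, adjusted p = 0.00043), and 1 of 12 fibroblast markers was higher in P5. Their part in the result was not tested.
Oas2, a synthetase of the OAS family, was at 4.28, 4.27 and 4.50 in dermal DC and 6.98, 5.59 and 6.85 in P5, a difference of 2.13 ± 0.31. Ifit1 was at 4.02, 5.87 and 4.17 and 6.79, 7.35 and 6.74, a difference of 2.27 ± 0.56. Ifit3, the partner of IFIT1, was at 4.90, 5.13 and 5.14 and 7.19, 7.59 and 5.56, a difference of 1.73 ± 0.44. For Oas2, Ifit1 and Ifit3, all arrays in P5 were above all arrays in dermal DC (adjusted p = 1.7e-05, 0.0089 and 0.013 in turn).
Rsad2 was at 5.00, 5.38 and 5.32 in dermal DC and 6.51, 7.09 and 6.75 in P5, a difference of 1.55 ± 0.29. Bst2 was at 8.65, 8.93 and 8.73 and 9.77, 9.41 and 9.52, a difference of 0.79 ± 0.21. Eif2ak2 was at 4.46, 4.10 and 4.62 and 6.09, 5.82 and 5.46, a difference of 1.40 ± 0.36. For Rsad2, Bst2 and Eif2ak2, all arrays in P5 were above all arrays in dermal DC (adjusted p = 0.00058, 0.017 and 0.013 in turn).

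After DNFB the set was higher in dermal monocytes and DC. In P1 all 37 genes had a higher mean after DNFB, and the arrays did not overlap for 30 (14.1% of all genes). With 2 arrays after treatment, 5 genes rose by the test, against 0.562% of all genes, and 0.0752% fell. In a fit to the 2 P1 groups alone, 0 of the 37 passed, while in the fit of all groups 21 had an unadjusted p under 0.05 (limma in both). Oas1a was at 7.36, 7.59 and 7.91 untreated and 9.15 and 9.45 after DNFB (1.68 ± 0.28, adjusted p = 0.0023). Rsad2 went from 6.15, 6.26 and 6.88 to 8.66 and 8.04 (1.92 ± 0.32, adjusted p = 0.0024). Usp18 went from 4.86, 5.12 and 4.79 to 6.38 and 6.67 (1.61 ± 0.32, adjusted p = 0.0099). In these 3 genes every treated array lay above every untreated one.
Ifi206 and Dhx58 were the others. Without P1 DNFB array 1, 1 call was left (Oas1a), and without array 2 there were 3, the lone array then being assumed to vary like the other populations. S100a9, a neutrophil and monocyte gene, rose by 2.92 ± 0.63 (adjusted p = 0.02) in the same comparison and the monocyte marker Vcan by 1.72 ± 0.35 (adjusted p = 0.014). The monocyte list mean was 10.42 to 10.78 untreated and 11.22 to 11.42 after DNFB. That of 8 neutrophil markers was 4.56 to 4.8 and 4.96 to 5.66, and that of 6 macrophage markers 7.6 to 7.88 and 8.64 to 8.74. The mean of 8 endothelial markers was 4.21 to 4.43 and 4.58 to 4.75. The keratinocyte and fibroblast list means overlapped. The part of these markers in the result was not tested.
Ifi206, an AIM2-like protein, was at 5.85, 5.06 and 5.97 without treatment and 8.53 and 7.28 after DNFB, a difference of 2.28 ± 0.54. Dhx58, a RIG-I-like receptor, was at 5.38, 5.33 and 5.65 and 6.96 and 7.11, a difference of 1.58 ± 0.32. The arrays after DNFB lay above those without treatment in each of these (adjusted p = 0.045 and 0.014 in turn).

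In P2, 21 of the 37 genes rose after DNFB and none fell, where 1.02% of all genes rose and 0.998% fell. All 37 means were higher, 28 without overlap (8.18% of all genes), and the median difference was 1.21, against 0.03 for all genes. The OAS, IFIT and sensor families each had 3 genes called, Parp9, Parp12, Parp14 and Dtx3l had none, and 8 of the 9 genes of other function rose. Ifi213 was at 4.56, 4.58 and 3.50 untreated and 7.15, 7.01 and 7.99 after DNFB (3.18 ± 0.46, adjusted p = 0.00011). Ifit3 was at 7.05, 6.97 and 6.14 and 8.83, 10.47 and 9.67 (2.93 ± 0.44, adjusted p = 0.00017). Ifit2, which promotes apoptosis and restricts viruses, was at 3.92, 3.89 and 3.95 and 6.03, 6.62 and 6.23 (2.38 ± 0.30, adjusted p = 1.1e-05). Its untreated levels lie under 4.02, the 40th percentile of all values on the arrays. All treated arrays were above all untreated ones in these genes.
Oas1a was at 7.30, 6.74 and 6.40 untreated and 9.10, 9.25 and 8.73 after DNFB (2.22 ± 0.25, adjusted p = 4.9e-06). Mx1, a GTPase active against influenza virus that C57BL/6 mice carry as a defective allele, was at 5.58, 4.69 and 4.67 and 6.51, 7.68 and 7.10 (2.12 ± 0.30, adjusted p = 9.2e-05). Oas2 was at 5.68, 5.76 and 5.34 and 7.66, 7.31 and 8.02 (2.07 ± 0.31, adjusted p = 0.00015). The arrays did not overlap in these either.
Irf7 was at 7.86, 7.38 and 6.12 and 8.83, 9.42 and 8.79 (1.89 ± 0.43, adjusted p = 0.013), with P2 untreated array 3 lowest. Its call was lost without that array (adjusted p = 0.13) or without P2 DNFB array 2 (adjusted p = 0.09). Irf9 (0.42 ± 0.27, adjusted p = 0.6) and Stat2 (0.98 ± 0.28, adjusted p = 0.069), the other regulators of the set, did not pass.
Oasl2 was at 6.65, 6.36 and 6.83 without treatment and 8.01, 8.70 and 8.70 after DNFB, a difference of 1.86 ± 0.30. Rsad2 was at 6.61, 6.00 and 5.83 and 7.62, 8.26 and 8.11, a difference of 1.85 ± 0.29. Zbp1 was at 7.17, 7.08 and 6.56 and 8.61, 8.61 and 8.96, a difference of 1.79 ± 0.27. For Oasl2, Rsad2 and Zbp1, all arrays after DNFB were above all arrays without treatment (adjusted p = 0.00038, 0.00029 and 0.00015 in turn).
Eif2ak2 was at 5.79, 4.98 and 4.60 without treatment and 6.22, 6.76 and 7.04 after DNFB, a difference of 1.55 ± 0.36. For Eif2ak2, all arrays after DNFB were above all arrays without treatment (adjusted p = 0.016).

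The remaining calls in P2 ran from 2.02 ± 0.49 for Ifi206 to 0.63 ± 0.17 for Ifi27l2a. Of the 21 calls, 10 were lost without at least 1 array, and leaving out each array in turn gave 14 to 24 calls. Skin cell markers were lower in P2 after DNFB. The mean of the keratinocyte list was 7.82 to 8.55 untreated and 6.08 to 7.92 after DNFB with 3 of 12 markers called, and the fibroblast list 8.27 to 8.49 and 6.61 to 7.2 with 2 of 12 called. The monocyte list mean was 8.79 to 9.4 and 9.95 to 10.39, with 2 of 5 markers rising. The mean of 8 neutrophil markers was 4.19 to 4.53 untreated and 4.83 to 5.52 after DNFB, with 1 rising and 1 falling, and that of 5 plasmacytoid DC markers 5.45 to 5.68 and 4.91 to 5.35, with 1 falling. The part of these markers in the rise was not tested. With the means of both skin lists added to the model, 11 of the 21 genes rose (Ifi213, Ifit3, Ifit2, Oas1a, Mx1, Oas2, Dhx58, Oasl2, Rsad2, Zbp1 and Trim30a). In a fit to the 2 P2 groups alone, 8 rose.

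In dermal DC also 21 of the 37 genes rose after DNFB and none fell, with 2.11% of all genes rising and 2.06% falling. The arrays did not overlap for 32 genes (12.1% of all genes), and the median difference was 1.28. Of the 21, 17 also rose in P2 (81% of each list), and the overlap over all genes was not counted. The 2 comparisons have no arrays in common. They are not independent, since they use the same estimate of the spread, and whether they share pools of animals is not stated. Ifit3 was at 4.90, 5.13 and 5.14 untreated and 8.86, 8.65 and 8.81 after DNFB (3.72 ± 0.44, adjusted p = 2e-06), 13.1-fold on the linear scale. Oasl2 was at 4.81, 3.76 and 4.72 and 8.01, 7.87 and 8.22 (3.60 ± 0.30, adjusted p = 2.4e-09). Irf7 was at 4.11, 5.28 and 5.14 and 7.92, 7.85 and 8.16 (3.13 ± 0.43, adjusted p = 1.5e-05). These genes had treated arrays that lay close together, all above the untreated arrays.
Rtp4 was at 5.52, 5.34 and 5.84 and 8.75, 8.25 and 8.73 (3.01 ± 0.48, adjusted p = 0.00015). Ifi213 was at 3.48, 2.98 and 2.97 and 5.94, 5.99 and 6.44 (2.98 ± 0.46, adjusted p = 8.9e-05). Its untreated levels lie under 4.02, the 40th percentile of all values on the arrays. Oas1a was at 6.02, 6.47 and 5.35 and 8.69, 8.63 and 8.50 (2.66 ± 0.25, adjusted p = 2.9e-08). Again no treated array overlapped the untreated ones.
Among the sensors, Dhx58 (2.45 ± 0.29, adjusted p = 1.7e-06), Ddx58, Zbp1 and Eif2ak2 rose, and Ifih1, which encodes MDA5, differed by 0.92 ± 0.34 (adjusted p = 0.15). Irf9 rose, and Usp18 (0.74 ± 0.28, adjusted p = 0.17) did not pass. Calls of Eif2ak2 (2 arrays), Irf9 (4), Mx1 (4) and Parp12 (6) were lost on leaving out single arrays, with adjusted p from 0.05 to 0.19.
Ddx58 was at 6.18, 5.18 and 5.87 without treatment and 7.45, 6.91 and 7.74 after DNFB, a difference of 1.62 ± 0.32. Ifit2 was at 3.69, 4.12 and 3.20 and 5.73, 5.22 and 6.56, a difference of 2.17 ± 0.30. Rsad2 was at 5.00, 5.38 and 5.32 and 6.47, 6.59 and 7.17, a difference of 1.51 ± 0.29. The arrays after DNFB lay above those without treatment in each of these (adjusted p = 0.0014, 1.6e-05 and 0.0012 in turn).
Mx1 was at 4.94, 4.93 and 5.45 without treatment and 6.38, 5.95 and 6.58 after DNFB, a difference of 1.20 ± 0.30. Zbp1 was at 6.07, 6.80 and 6.17 and 7.95, 7.77 and 8.09, a difference of 1.59 ± 0.27. Eif2ak2 was at 4.46, 4.10 and 4.62 and 6.12, 5.43 and 6.30, a difference of 1.56 ± 0.36. For Mx1, Zbp1 and Eif2ak2, all arrays after DNFB were above all arrays without treatment (adjusted p = 0.019, 0.00025 and 0.008 in turn).
Irf9, the DNA-binding partner of the STATs, was at 6.71, 6.25 and 6.26 without treatment and 7.53, 6.88 and 7.79 after DNFB, a difference of 0.99 ± 0.27. For Irf9, all arrays after DNFB were above all arrays without treatment (adjusted p = 0.029).

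Other cell markers moved in dermal DC too. The monocyte list mean was 5.43 to 5.96 untreated and 6.88 to 7.26 after DNFB. Plac8 rose by 4.78 ± 0.62 (adjusted p = 7.2e-06) and Vcan by 2.22 ± 0.32 (adjusted p = 2.8e-05), and Fcgr1, which encodes the CD64 used to gate these cells out, by 2.04 ± 0.34 (adjusted p = 0.00025). The mean of 6 macrophage markers, Fcgr1 among them, went the other way, at 7.76 to 8.28 untreated and 6.98 to 7.45 after DNFB. The mean of 6 dendritic cell markers was 8.01 to 8.33 and 8.76 to 9.03. Of 5 T cell markers 3 rose (list mean 4.11 to 4.74 and 5.14 to 5.62), and 2 of 12 keratinocyte markers fell. The part of these cells in the rise was not tested. No gene of the set differed in its DNFB response between dermal DC and P2 (0.13% of all genes higher and 0.12% lower in dermal DC) or between P1 and P2 (0.0552% higher and 0% lower in P1). In these 2 tests by limma, 4 and 6 genes had an unadjusted p under 0.05.

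**Figure D3:**
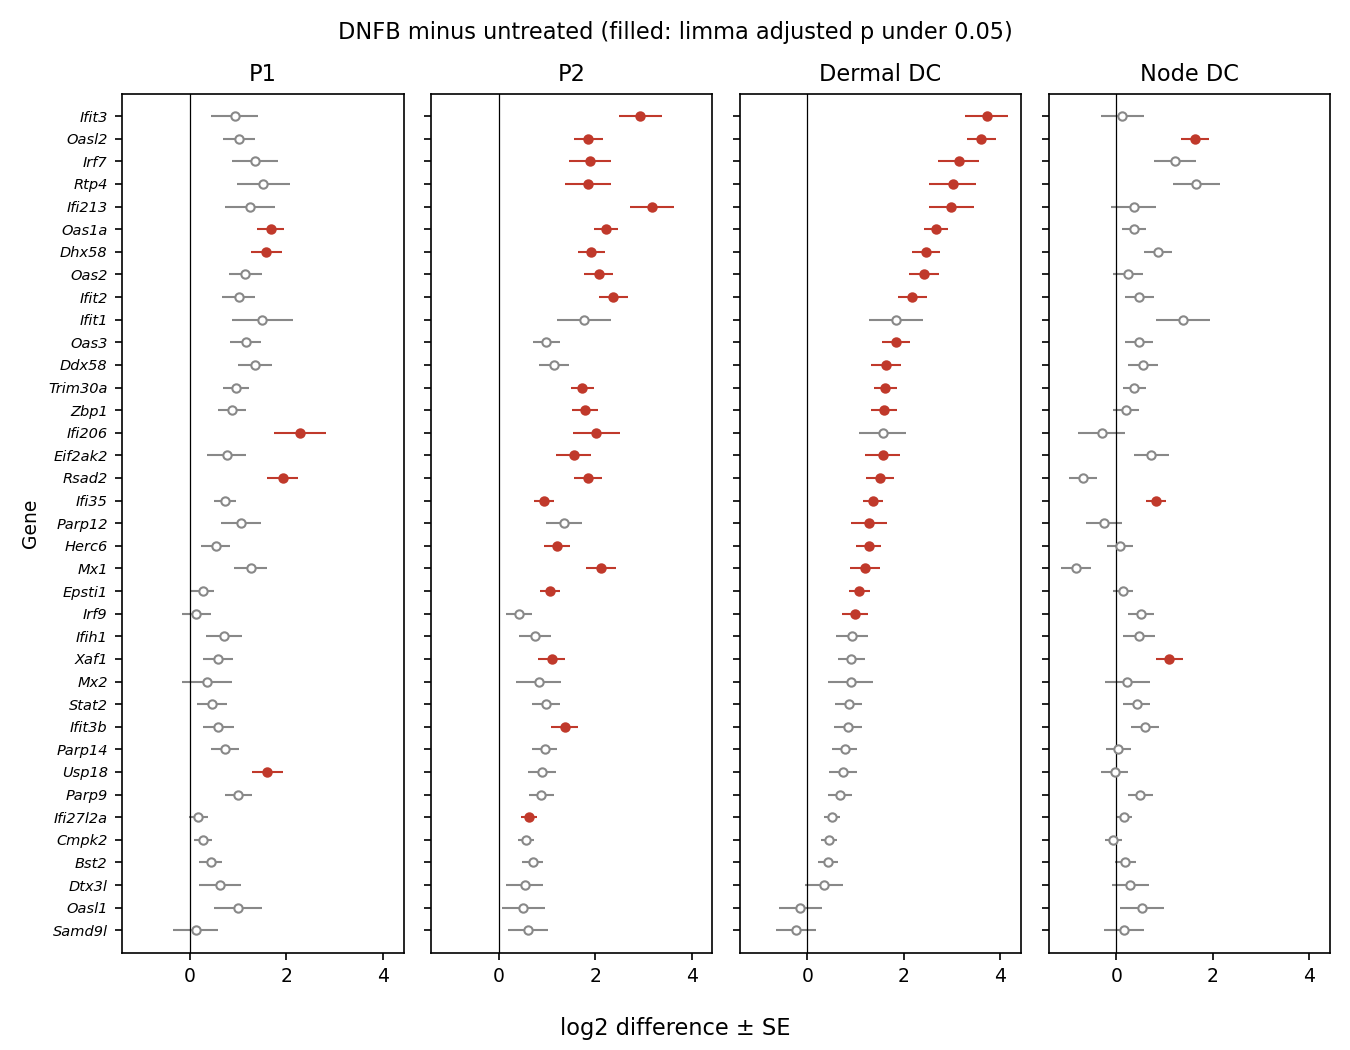
Difference between DNFB and untreated arrays (log2, point, with the standard error as a bar) for each of the 37 genes in P1, P2, dermal DC and node DC, with filled red points where the limma adjusted p is under 0.05 and genes ordered by the difference in dermal DC. Filled points number 5, 21, 21 and 3, and node DC has a smaller difference than dermal DC for 34 of the 37 genes.

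In node DC the response to DNFB reached fewer genes, with 3 genes rising and none falling (0.903% of all genes rose and 0.441% fell), 17 genes higher without overlap (7.73% of all genes) and a median difference of 0.37. Oasl2 was at 5.50, 4.82 and 5.99 untreated and 7.07, 6.90 and 7.24 after DNFB (1.64 ± 0.30, adjusted p = 0.0015), with no overlap. The calls of Xaf1 and Ifi35 were each lost without any of 5 arrays. Only the Oasl2 call was left without node DC DNFB array 1 or 3 or untreated array 1 or 3 (1 call each).
Xaf1, a pro-apoptotic factor, was at 6.12, 6.72 and 6.02 without treatment and 7.42, 7.17 and 7.57 after DNFB, a difference of 1.10 ± 0.28. Ifi35, a partner of NMI, was at 7.30, 7.36 and 7.54 and 8.11, 8.02 and 8.55, a difference of 0.83 ± 0.21. The arrays after DNFB lay above those without treatment in each of these (adjusted p = 0.036 and 0.034 in turn).

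The test of the difference between the 2 responses was passed by 9 genes, each with a smaller response in node DC than in dermal DC (0.497% of all genes, with 0.813% the other way). Ifit3 had the largest difference of responses of the 9, -3.59 ± 0.63 (adjusted p = 0.0017). It was at 5.53, 5.55 and 5.48 in untreated node DC and 5.11, 5.73 and 6.10 after DNFB, which overlap, while dermal DC rose from 4.90, 5.13 and 5.14 to 8.86, 8.65 and 8.81. Rsad2 differed by -2.19 ± 0.41 (adjusted p = 0.0029) and Mx1 by -2.03 ± 0.43 (adjusted p = 0.011). In node DC, Mx1 was at 7.70, 7.74 and 7.94 untreated and 6.73, 6.58 and 7.58 after DNFB, and Rsad2 at 6.47, 6.63 and 7.37 and 6.21, 6.07 and 6.16, lower on every treated array, but neither difference passed (Rsad2 -0.68 ± 0.29, adjusted p = 0.45, Mx1 -0.83 ± 0.30, adjusted p = 0.29). The other genes were Ifi213 (-2.62 ± 0.65, adjusted p = 0.038), Oas1a (-2.29 ± 0.35, adjusted p = 0.00037), Oas2 (-2.17 ± 0.43, adjusted p = 0.0062), Oasl2 (-1.97 ± 0.42, adjusted p = 0.011), Ifit2 (-1.69 ± 0.42, adjusted p = 0.038) and Dhx58 (-1.59 ± 0.41, adjusted p = 0.045). The 3 with adjusted p near the threshold, Ifi213, Ifit2 and Dhx58, lost their calls without any of 8 or 9 arrays. Their means in untreated dermal DC (3.14, 3.67 and 3.78) lie under 4.02, the 40th percentile of all values on the arrays. So do the means of Ifi213 and Ifit2 in untreated node DC (3.64 and 3.63). The median over the 37 genes was -0.93 and that of all genes -0.01. Of 5 monocyte markers 2, and of 5 T cell markers 2, also had a smaller response in node DC. With the skin list means in the model 5 of the 9 calls remained (Ifit3, Oas1a, Oas2, Oasl2 and Rsad2).

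Node DC and dermal DC also differed in which genes of the set they expressed. Untreated, 16 genes were higher in node DC and 3 lower, where 10.1% of all genes rose and 10.1% fell. All 4 genes of the PARP and DTX3L group and both of the ISG15 system were higher, and none of the IFIT family passed. Epsti1, an epithelial and stromal interaction protein, was at 7.95, 8.10 and 8.11 in dermal DC and 11.59, 11.71 and 11.57 in node DC (3.58 ± 0.21, adjusted p = 9e-14), 11.9-fold. Herc6, the mouse ligase that attaches ISG15 to proteins, was at 4.71, 5.51 and 4.52 and 7.53, 7.99 and 7.88 (2.89 ± 0.27, adjusted p = 9.3e-10). Mx1 was at 4.94, 4.93 and 5.45 and 7.70, 7.74 and 7.94 (2.69 ± 0.30, adjusted p = 5.8e-08). The node arrays were above all dermal arrays in these genes.
Usp18 was at 6.59, 5.78 and 5.77 in dermal DC and 8.45, 8.86 and 8.69 in node DC (2.61 ± 0.28, adjusted p = 2.2e-08), a node level near that of blood monocytes. Dtx3l and its partner Parp9, also higher, are neighbours on chromosome 16 in RefSeq.
The 3 lower genes were Oasl1, Ifi27l2a and Samd9l. Oasl1 was at 6.87, 7.44 and 8.22 and 5.50, 5.56 and 5.45 (-2.01 ± 0.45, adjusted p = 0.0012). Ifi27l2a, of the ISG12 family, differed by -1.52 ± 0.17 (adjusted p = 3.2e-08) and Samd9l, a translation inhibitor, by -1.33 ± 0.41 (adjusted p = 0.02), the last of which was lost without any of 3 arrays. The call of Irf9 was lost without any of 4 arrays (adjusted p 0.081 to 0.11), and those of Ddx58 (0.089 to 0.096), Oasl2 (0.13 to 0.15) and Trim30a (0.055 to 0.058) without either of 2. Of 12 keratinocyte markers 9 were lower in node DC, and with both skin list means in the model 9 of the 19 calls remained (Epsti1, Herc6, Mx1, Usp18, Rsad2, Parp9, Ifi27l2a, Zbp1 and Oas1a).
Parp9, a partner of DTX3L, was at 5.91, 6.50 and 6.00 in dermal DC and 7.54, 7.86 and 7.78 in node DC, a difference of 1.59 ± 0.25. Dtx3l, a ubiquitin ligase, was at 6.86, 6.00 and 5.99 and 7.84, 8.23 and 7.99, a difference of 1.74 ± 0.39. Rsad2 was at 5.00, 5.38 and 5.32 and 6.47, 6.63 and 7.37, a difference of 1.59 ± 0.29. For Parp9, Dtx3l and Rsad2, all arrays in node DC were above all arrays in dermal DC (adjusted p = 1.7e-05, 0.0013 and 1e-04 in turn).
Zbp1 was at 6.07, 6.80 and 6.17 in dermal DC and 7.33, 7.70 and 8.0 in node DC, a difference of 1.33 ± 0.27. Ifih1 was at 6.80, 7.29 and 6.94 and 8.08, 8.10 and 8.45, a difference of 1.20 ± 0.34. Oasl2 was at 4.81, 3.76 and 4.72 and 5.50, 4.82 and 5.99, a difference of 1.00 ± 0.30. For Zbp1, Ifih1 and Oasl2, all arrays in node DC were above all arrays in dermal DC (adjusted p = 0.00035, 0.0095 and 0.014 in turn).
Ddx58 was at 6.18, 5.18 and 5.87 in dermal DC and 6.38, 7.36 and 6.82 in node DC, a difference of 1.11 ± 0.32. Irf9 was at 6.71, 6.25 and 6.26 and 7.26, 7.36 and 7.01, a difference of 0.81 ± 0.27. The arrays in node DC lay above those in dermal DC in each of these (adjusted p = 0.01 and 0.031 in turn).

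After DNFB, 5 genes were higher in node DC than in dermal DC and 12 lower (8.44% of all genes rose and 9.04% fell). The 5 were Epsti1 (2.64 ± 0.21, adjusted p = 7.5e-11), Usp18 (1.85 ± 0.28, adjusted p = 9.3e-06), Herc6 (1.70 ± 0.27, adjusted p = 1.3e-05), Dtx3l (1.69 ± 0.39, adjusted p = 0.0018) and Parp9 (1.42 ± 0.25, adjusted p = 8.9e-05). All 5 OAS genes were lower, as were Ifit2 and Ifit3. Ifit3 differed by -3.13 ± 0.44 (adjusted p = 3e-06). Rtp4 was at 8.75, 8.25 and 8.73 in treated dermal DC and 5.87, 5.36 and 6.74 in treated node DC (-2.59 ± 0.48, adjusted p = 0.00017). Irf7 was at 7.92, 7.85 and 8.16 and 6.03, 5.57 and 6.08 (-2.08 ± 0.43, adjusted p = 0.00051). Neither Rtp4 nor Irf7 overlapped between the tissues.
Ifi213 and Oas2 were lower as well. Ifi27l2a was lower as in untreated cells (-1.87 ± 0.17, adjusted p = 6.5e-10). The remaining lower genes were Ifit2, Oas3, Oasl1, Oas1a, Dhx58 and Oasl2, of which Oasl1, Oasl2 and Dhx58 lost their calls without single arrays (adjusted p 0.051 to 0.2). The monocyte list mean was 6.88 to 7.26 in treated dermal DC and 4.09 to 4.53 in treated node DC, and its part in these differences was not tested.
Ifi213 was at 5.94, 5.99 and 6.44 in treated dermal DC and 3.69, 3.46 and 4.85 in treated node DC, a difference of -2.12 ± 0.46. Oas2 was at 7.35, 6.11 and 6.84 and 4.63, 4.79 and 4.77, a difference of -2.04 ± 0.31. Ifit2 was at 5.73, 5.22 and 6.56 and 4.02, 4.15 and 4.13, a difference of -1.73 ± 0.30. For Ifi213, Oas2 and Ifit2, all arrays in treated node DC were below all arrays in treated dermal DC (adjusted p = 0.00097, 7.7e-06 and 5.3e-05 in turn).
Oasl2 was at 8.01, 7.87 and 8.22 in treated dermal DC and 7.07, 6.90 and 7.24 in treated node DC, a difference of -0.96 ± 0.30. For Oasl2, all arrays in treated node DC were below all arrays in treated dermal DC (adjusted p = 0.021).

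**Figure D4:**
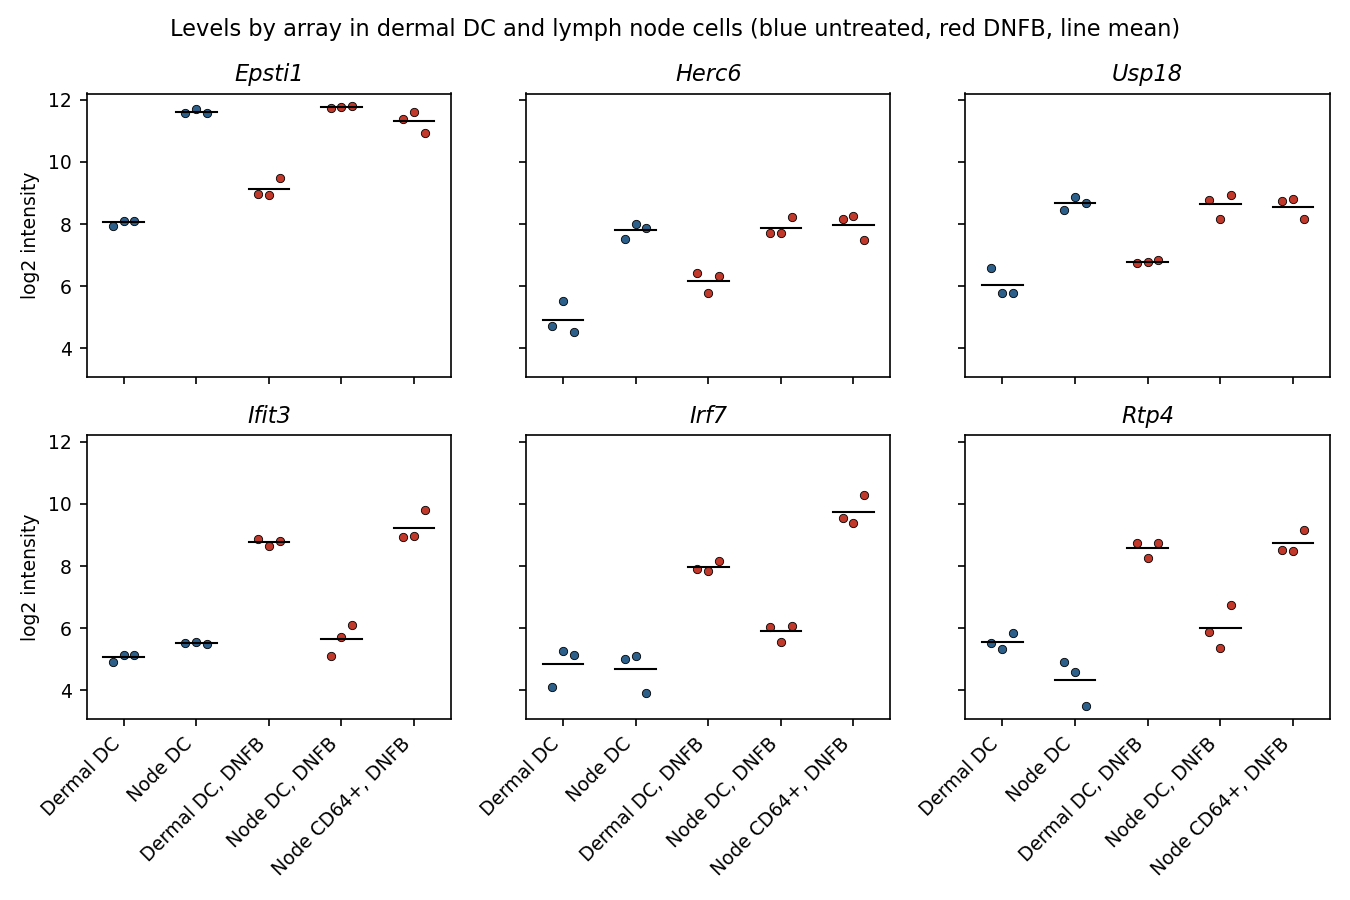
Level of 6 genes (log2 intensity) on each array of dermal DC and lymph node populations, blue for untreated and red for DNFB, with a line at the mean. Epsti1, Herc6 and Usp18 are high in all 3 node populations, while Ifit3, Irf7 and Rtp4 are high in treated dermal DC and in CD64+ node cells and low in node DC.

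CD64+ cells of the treated node had high levels both of Epsti1, Herc6 and Usp18 and of Irf7, Ifit3 and Rtp4. Against node DC from treated mice, 17 genes were higher and none lower (3.82% of all genes rose and 1% fell), with a median difference of 1.01. Irf7 was at 9.55, 9.38 and 10.29 in the CD64+ cells (3.84 ± 0.43, adjusted p = 1.4e-07). Ifit3 was at 8.93, 8.97 and 9.82 (3.59 ± 0.44, adjusted p = 8.9e-07). Ifit2 was at 7.03, 6.87 and 7.83, against 4.02, 4.15 and 4.13 in node DC (3.14 ± 0.30, adjusted p = 6.6e-09). All CD64+ arrays lay above all node DC arrays in these genes.
Ifi206, Ifi213 and Rtp4 were also higher. Epsti1 (-0.46 ± 0.21, adjusted p = 0.3), Usp18 (-0.07 ± 0.28, adjusted p = 0.95) and Herc6 (0.09 ± 0.27, adjusted p = 0.94) did not pass, and both node populations had high levels of them. Of the 17 calls, 5 were lost without at least 1 array (Ddx58, Dhx58, Eif2ak2, Oasl2 and Zbp1, adjusted p 0.054 to 0.23). The CD64+ cells carried more monocyte marker RNA (list mean 6.55 to 6.83, against 4.09 to 4.53), Ccr2 among it (4.79 ± 0.27, adjusted p = 2.3e-13). They also carried more Fcgr1 (3.74 ± 0.34, adjusted p = 3.1e-09), as their gate selects. The macrophage list mean was 9.41 to 10.49 in the CD64+ cells and 5.09 to 5.8 in treated node DC. The mean of 6 dendritic cell markers was alike in both, at 7.83 to 8.66 and 8.24 to 8.48.
Ifi206 was at 4.08, 3.79 and 4.80 in node DC and 7.03, 7.42 and 8.09 in CD64+ cells, a difference of 3.29 ± 0.49. Ifi213 was at 3.69, 3.46 and 4.85 and 6.86, 6.85 and 7.77, a difference of 3.16 ± 0.46. Rtp4, a chaperone, was at 5.87, 5.36 and 6.74 and 8.53, 8.50 and 9.16, a difference of 2.74 ± 0.48. The arrays in CD64+ cells lay above those in node DC in each of these (adjusted p = 1.9e-05, 1.6e-05 and 0.00027 in turn).
Ddx58 was at 7.06, 7.18 and 7.98 in node DC and 8.39, 8.40 and 8.88 in CD64+ cells, a difference of 1.15 ± 0.32. Zbp1 was at 7.81, 7.62 and 8.20 and 8.90, 8.63 and 8.91, a difference of 0.94 ± 0.27. Eif2ak2 was at 5.51, 5.00 and 6.78 and 6.82, 7.11 and 7.42, a difference of 1.35 ± 0.36. For Ddx58, Zbp1 and Eif2ak2, all arrays in CD64+ cells were above all arrays in node DC (adjusted p = 0.026, 0.034 and 0.021 in turn).
Rsad2 was at 6.21, 6.07 and 6.16 in node DC and 7.50, 7.16 and 7.61 in CD64+ cells, a difference of 1.28 ± 0.29. Oasl2 was at 7.07, 6.90 and 7.24 and 8.14, 8.29 and 8.77, a difference of 1.33 ± 0.30. Bst2 was at 8.67, 8.93 and 9.11 and 9.88, 9.50 and 10.36, a difference of 1.01 ± 0.21. For Rsad2, Oasl2 and Bst2, all arrays in CD64+ cells were above all arrays in node DC (adjusted p = 0.005, 0.0041 and 0.002 in turn).

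Against P2 of treated dermis, the treated dermal monocytes that are CD64+ and MHCII+, 7 genes were higher in the CD64+ node cells and 1 lower (7.26% of all genes rose and 5.37% fell). Epsti1 was at 8.99, 9.25 and 9.12 in P2 and 11.39, 11.60 and 10.93 in the node (2.19 ± 0.21, adjusted p = 6.8e-09). Usp18 was at 5.87, 7.26 and 6.98 and 8.73, 8.81 and 8.15 (1.86 ± 0.28, adjusted p = 1.3e-05). Herc6, Dtx3l and Parp9 were higher too. These are the 5 genes that were higher in node DC than in dermal DC after DNFB.
Ddx58 and Ifit2 were also higher and Ifi27l2a lower (-0.62 ± 0.17, adjusted p = 0.011), all 3 being lost without single arrays (adjusted p 0.061 to 0.24). These 2 populations differed in cell markers. The dendritic cell list mean was 6.09 to 7.11 in treated P2 and 7.83 to 8.66 in the node cells. The monocyte list mean was 9.95 to 10.39 and 6.55 to 6.83, and the macrophage list mean 9.49 to 10.03 and 9.41 to 10.49. The part of these markers was not tested. The keratinocyte list mean was 6.08 to 7.92 in treated P2 and 4.61 to 4.64 in the node cells. With both skin list means in the model, 3 of the 8 calls remained (Epsti1, Usp18 and Ifi27l2a).
Herc6, the ligase of ISG15, was at 5.81, 6.63 and 6.33 in treated P2 and 8.15, 8.27 and 7.48 in CD64+ node cells, a difference of 1.71 ± 0.27. Dtx3l was at 6.69, 6.80 and 6.93 and 8.62, 8.73 and 8.10, a difference of 1.68 ± 0.39. Parp9 was at 7.04, 6.87 and 7.15 and 8.57, 8.21 and 8.30, a difference of 1.34 ± 0.25. The arrays in CD64+ node cells lay above those in treated P2 in each of these (adjusted p = 1.8e-05, 0.0028 and 0.00028 in turn).
Ddx58 was at 7.44, 7.60 and 7.70 in treated P2 and 8.39, 8.40 and 8.88 in CD64+ node cells, a difference of 0.97 ± 0.32. Ifit2 was at 6.03, 6.62 and 6.23 and 7.03, 6.87 and 7.83, a difference of 0.95 ± 0.30. For Ddx58 and Ifit2, all arrays in CD64+ node cells were above all arrays in treated P2 (adjusted p = 0.038 and 0.032 in turn).

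Genes upstream of the set were read as lists. Of 15 measured interferon ligands (of 20 listed), the list mean was 4.09 to 4.57 over all populations, near the array medians of 4.39 to 4.65. Ifnb1, which encodes interferon beta, stood apart. It was at 6.72, 7.82 and 8.33 in P3, 6.66, 8.03 and 7.46 in P5, 4.40, 6.94 and 5.74 in P4 and 5.37, 4.91 and 5.46 in P2. In blood monocytes it was at 3.50, 3.40 and 3.65, and in dermal DC at 3.67, 5.11 and 4.29. Ifnb1 was lower in dermal DC than in P3 (-3.27 ± 0.55, adjusted p = 0.00067) and higher in P5 than in dermal DC (3.02 ± 0.55, adjusted p = 0.00044), and the difference between P3 and P2 was 2.38 ± 0.55 (adjusted p = 0.05). The populations with the highest Ifnb1 were not those with the highest level of the set. With DNFB, Ifnb1 did not pass in P1 (adjusted p = 0.66), P2 (1), dermal DC (0.93) or node DC (0.93). Ifng, which encodes interferon gamma, was at 4.20, 4.08 and 4.32 in blood and 4.16, 4.03 and 3.98 in treated dermal DC, and passed in none of the comparisons.

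The receptor genes differed by tissue. Ifnar1 was at 8.53, 8.53 and 8.40 in blood, 8.86, 8.93 and 8.82 in dermal DC and 7.26, 7.57 and 7.32 in node DC, lower in node DC (-1.48 ± 0.18, adjusted p = 2e-07). Ifnar2 was at 10.18, 10.12 and 10.17 and 9.52, 9.51 and 9.91 (-0.51 ± 0.15, adjusted p = 0.011). After DNFB both were again lower in node DC (Ifnar1 -1.50 ± 0.18, adjusted p = 2e-07, Ifnar2 -0.93 ± 0.15, adjusted p = 1.4e-05), and higher in the CD64+ node cells than in node DC (Ifnar1 1.13 ± 0.18, adjusted p = 5.9e-05, Ifnar2 0.98 ± 0.15, adjusted p = 2.1e-05). Neither passed from blood to P1 or with DNFB in any of 4 populations. The receptor chain gene Ifngr1 was lower in node DC as well (-1.91 ± 0.19, adjusted p = 3.5e-09 untreated). Of 10 measured receptor, kinase and STAT genes, 0 rose and 3 fell from blood to P1 (5.21% of all genes rose and 7.43% fell). With DNFB 0 of them passed in P1, P2, dermal DC or node DC, where 0.562%, 1.02%, 2.11% and 0.903% of all genes rose. Irf1, a transcription factor gene, was higher in node DC than in dermal DC, untreated (1.63 ± 0.32, adjusted p = 0.00025) and after DNFB (2.54 ± 0.32, adjusted p = 3.7e-07).

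Among 7 inhibitors of interferon signalling, Socs3 was at 6.42, 6.52 and 6.95 in blood and 10.16, 9.94 and 9.56 in P1 (3.26 ± 0.22, adjusted p = 7.4e-12), and at 9.78, 9.42 and 9.77 in dermal DC and 5.70, 6.10 and 5.75 in node DC (-3.81 ± 0.22, adjusted p = 3.3e-14). The STAT5-induced inhibitor Cish rose from blood to P1 too (2.13 ± 0.30, adjusted p = 8.8e-06), while Ptpn6, a phosphatase gene, fell (-1.46 ± 0.15, adjusted p = 4.5e-08). With DNFB, 1 of the 7 changed in P2 (Cish, -1.15 ± 0.30, adjusted p = 0.037), 1 in dermal DC (Ptpn6, 0.64 ± 0.15, adjusted p = 0.01) and 0 in P1 or node DC. Of all genes, 0.998% fell in P2 and 2.11% rose in dermal DC.

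A second list of 35 measured interferon-induced genes was counted in the same way. From blood to P1, 22 fell and 1 rose, with a median of -1.34, where 7.43% of all genes fell and 5.21% rose. Among those that fell were Trim34a (-1.67 ± 0.21, adjusted p = 1.9e-06), the RNA-editing enzyme gene Adar (-1.46 ± 0.21, adjusted p = 1.9e-05) and Pml (-1.60 ± 0.25, adjusted p = 3.9e-05). With DNFB, 11 rose in P2 (1.02% of all genes), 13 in dermal DC (2.11%), 3 in node DC (0.903%) and 1 in P1 (0.562%), and none fell. In dermal DC these included the exonuclease gene Isg20 (2.65 ± 0.30, adjusted p = 1.1e-06) and Phf11a (2.72 ± 0.39, adjusted p = 2.8e-05), and in P2 Rnf213 (2.28 ± 0.41, adjusted p = 0.0013) and Nmi (1.48 ± 0.26, adjusted p = 0.0013). In node DC they were Ly6e (1.70 ± 0.17, adjusted p = 1.7e-07), Tdrd7 (1.56 ± 0.22, adjusted p = 6.1e-05) and Ifi205 (2.50 ± 0.61, adjusted p = 0.03).

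A list of 12 measured genes, chosen by symbol as induced mainly by interferon gamma, was counted too. Which interferon acted on them here was not tested. In node DC, 4 of the 12 rose with DNFB, where 0.903% of all genes rose, and the difference from the set was not tested as a list. The chemokine gene Cxcl9 was at 7.64, 6.01 and 6.59 untreated and 9.40, 9.76 and 10.03 after DNFB (2.98 ± 0.55, adjusted p = 0.002). Cxcl10, whose product draws the same receptor CXCR3, was at 5.46, 6.25 and 5.22 and 8.91, 8.26 and 7.91 (2.72 ± 0.46, adjusted p = 0.00072). Ciita, the master regulator of MHC class II (2.01 ± 0.27, adjusted p = 4.8e-05), and Cd274, which encodes PD-L1 (1.43 ± 0.27, adjusted p = 0.0027), rose too. In both chemokines the treated node arrays were all above the untreated ones.
In dermal DC, Cxcl9 was at 8.77, 8.77 and 8.90 untreated and 7.61, 7.18 and 7.24 after DNFB (-1.47 ± 0.55, adjusted p = 0.16), and in P2 it fell (-2.50 ± 0.55, adjusted p = 0.011). The response of Cxcl9 to DNFB was higher in node DC than in dermal DC by 4.45 ± 0.78 (adjusted p = 0.0017) and that of Cxcl10 by 2.55 ± 0.65 (adjusted p = 0.044), the opposite direction to the 9 genes of the set. Gbp5 (4.30 ± 0.25, adjusted p = 7.6e-14) and Gbp4 (4.23 ± 0.28, adjusted p = 8.7e-13), guanylate-binding protein genes, were higher in untreated node DC than in dermal DC, with Gbp5 at 5.09, 4.14 and 3.83 in dermal DC and 8.56, 8.76 and 8.64 in node DC. Cxcl9, of the same list, went the other way, with all untreated node DC arrays below all untreated dermal DC arrays. Epsti1, Herc6 and Usp18 were also higher in untreated node DC, as were 10.1% of all genes. A link between them and Gbp4 or Gbp5 was not tested.

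The ISRE core was also counted by response. Of 16 genes that rose in dermal DC and had a promoter in the table, 8 held the core, and of 11 measured genes that did not pass there, 6 held it. In P2 the counts were 8 of 15 and 6 of 12. No match was found in the 300 bases for Irf7, Irf9, Ifit2, Oasl2, Ifi35, Parp12, Epsti1 or Herc6, which rose in dermal DC. The same held for Dtx3l, Cmpk2, Oasl1, Samd9l and Xaf1, which did not pass there. Promoters of Usp18, Parp9 and Mx1 were not analysed.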

How the data were processed

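The 38 arrays (Affymetrix mouse Gene 1.0 ST) were read from the deposited table of log2 values, which the authors made by RMA normalization (affy), as the submitters' processing notes state. Array medians were 4.39 to 4.65. Per the labels, each sample was 5000 to 10000 sorted cells giving 5 to 20 ng of RNA, which was amplified; arrays were run in 3 chip batches that are not assigned to arrays, so batch was not tested. Array number and amplification limit the precision of low genes.

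Of 34760 probe sets, 21640 name 1 gene symbol, 1321 several and 11799 none. Per gene, the probe set with the highest mean over all arrays was kept, which left 19937 genes. Differences were fitted with limma 3.58.1 in R 4.3.3 (13 group means, 25 residual and 3.13 prior degrees of freedom), for 18 comparisons, each with Benjamini-Hochberg adjustment over all genes, and called at an adjusted p under 0.05. The code was tested on simulated data. The genes, marker and pathway lists and tests were chosen with earlier results of these data known. Every gene of the set could be named, with values by array for regulators, sensors and main effectors that were called and for the 6 largest called differences in a comparison. Alternatives were quantile normalization, median centring, filters on low genes, the mean of all probe sets, other variance settings, a fit of the compared groups only, replicate numbers as blocks, skin marker means as covariates, and leaving out each array. Arrays were not paired by replicate number (0 of 15 comparisons had every pair's correlation over 0.1). This check cannot exclude pairing, since groups have 2 or 3 arrays and the titles and source names number them differently. For node DC against dermal DC after DNFB the correlations were -0.16, 0.35 and 0.21. The labels do not say whether same-numbered arrays share animals.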

Additional observations from a re-analysis of the deposited data

Results flagged for a closer look

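The response to DNFB differed between node DC and dermal DC for 9 interferon-stimulated genes by a test of the difference itself, and each responded less in node DC. The difference of responses was -3.59 ± 0.63 (adjusted p = 0.0017) for Ifit3, -2.62 ± 0.65 (adjusted p = 0.038) for Ifi213, -2.29 ± 0.35 (adjusted p = 0.00037) for Oas1a and -2.19 ± 0.41 (adjusted p = 0.0029) for Rsad2. It was -2.17 ± 0.43 (adjusted p = 0.0062) for Oas2, -2.03 ± 0.43 (adjusted p = 0.011) for Mx1, -1.97 ± 0.42 (adjusted p = 0.011) for Oasl2, -1.69 ± 0.42 (adjusted p = 0.038) for Ifit2 and -1.59 ± 0.41 (adjusted p = 0.045) for Dhx58. For Mx1 and Rsad2 untreated node DC were at 7.79 ± 0.12 and 6.83 ± 0.48 (SD, n = 3), against 5.11 ± 0.30 and 5.23 ± 0.20 in untreated dermal DC. The untreated node and dermal DC means of the other genes were 5.52 and 5.06 for Ifit3 and 3.64 and 3.14 for Ifi213. They were 7.07 and 5.95 for Oas1a, 4.49 and 4.35 for Oas2 and 5.43 and 4.43 for Oasl2. For Ifit2 they were 3.63 and 3.67, and for Dhx58 4.32 and 3.78. The part of the untreated level in the response was not tested.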

How the results depend on the processing

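Of 180 calls of genes of the set over the 18 comparisons, 173 were kept under quantile normalization, 158 with array medians centred, 178 with an intensity trend and robust variances, 180 with the mean of all probe sets and 131 when only the compared groups were fitted. With the keratinocyte and fibroblast means as covariates 113 were kept, 66 lost and 1 reversed, Trim30a between untreated node and dermal DC (-0.03). Counts of calls moved by over 1.5 times as follows. With covariates, P1 against blood had 6, P2 against P1 3, dermal DC against P3 10, DNFB in P2 11, untreated node against dermal DC 9, CD64+ node cells against P2 3 and the difference of DNFB responses 5. With only the compared groups, P2 against P1, dermal DC against P3, P5 against P3 and DNFB in P1 had 0 (limma; 18, 16, 3 and 21 genes had an unadjusted p under 0.05 in the fit of all groups), P5 against dermal DC 7 and DNFB in P2 8. With medians centred, P2 against P1 had 2, P5 against P3 0 and DNFB in node DC 1. With quantile normalization, P5 against P3 had 0. The causes were not tested.

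Leaving out 1 array at a time kept 935 of 1129 calls. The counts then ran from 30 to 34 for P1 against blood, 0 to 5 for P2 against P1, 2 to 5 for dermal DC against P3, 0 to 2 for P5 against P3, 10 to 13 for P5 against dermal DC, 1 to 6 for DNFB in P1, 14 to 24 in P2, 17 to 21 in dermal DC and 1 to 2 in node DC. They ran from 15 to 20 and 14 to 17 for node against dermal DC untreated and treated, 12 to 18 and 6 to 7 for CD64+ node cells against node DC and P2, and 6 to 10 for the difference of responses. With the replicate number as a fixed block (replicate block), 176 of the 180 calls were kept, with 34 for P1 against blood, 22 for DNFB in P2 and 8 for the difference of responses, where the correlations of same-numbered deviations were -0.26 to 0.35. With the number in the source names as a random block, 180 of 180 were kept.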

Other observations

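The list of sensors, adaptors and IRFs that act upstream of interferon production had 16 measured genes. From blood to P1, 0 rose and 7 fell (5.21% of all genes rose and 7.43% fell). With DNFB in dermal DC, 1 rose and 0 fell (2.11% of all genes rose and 2.06% fell). Tlr7, an endosomal sensor of single-stranded RNA, was at 9.68, 9.45 and 9.14 in blood, 8.54, 7.41 and 8.45 in P3, 9.07, 8.82 and 8.27 in P5 and 5.52, 4.95 and 4.50 in dermal DC. It was lower in dermal DC than in P3 (-3.14 ± 0.39, adjusted p = 8.6e-06) and higher in CD64+ node cells than in node DC (3.88 ± 0.39, adjusted p = 1.5e-08). The DC arrays lay below those of P3 and P5. Irf8, a transcription factor of monocytes and DC, rose with DNFB in P2 (1.28 ± 0.24, adjusted p = 0.0022), dermal DC (1.32 ± 0.24, adjusted p = 0.00064) and node DC (1.08 ± 0.24, adjusted p = 0.013). It was at 5.84, 6.44 and 5.99 in untreated dermal DC and 8.44, 8.28 and 8.10 in untreated node DC (2.18 ± 0.24, adjusted p = 2.9e-08), which do not overlap. Limma adjusted p-values are given throughout.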
